A study of Mus musculus with 32 samples.

Results

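Prostanoids are lipid signals made from arachidonic acid, and 8 genes of their synthesis and sensing were followed here across cultured mouse lung endothelial cells (ECs). Phospholipases free arachidonic acid from membranes, the cyclooxygenases turn it into prostaglandin H2, and a terminal synthase then decides which prostanoid a cell releases. ECs are best known for prostacyclin, which relaxes vessels and restrains platelets, while prostaglandin E2 and thromboxane act on permeability, leukocytes and platelets. The genes were taken by symbol: Pla2g4a, Ptgs1, Ptgs2, Ptges, Ptgds, Ptgis, Tbxas1 and Ptger4, 8 of the 54429 symbols of the merged count table. The low-count filter kept 7 of them among the 15254 genes tested, and Ptgis fell below it.

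The cells were Veravec, 1 lung EC line, so replicates were cultures of that line and not animals. All groups were transfected in 2 rounds, with a control siRNA (si-control) or with siRNA against Dnmt1, the maintenance DNA methyltransferase (si-dnmt). The paper lists 2 Dnmt1 siRNA sequences without saying whether they were pooled, and the sample labels name neither. All groups then received no cytokine, TNFα at 10 ng/mL (TNF), IFNγ at 1000 U/mL (IFN) or both (TNF + IFN) for 16 h. Each of the 8 groups held 4 bulk RNA-seq libraries numbered as biological replicates, 32 in all, with 17362546 to 33500030 counts per library. In every group, replicates 1 and 2 stood apart from replicates 3 and 4. The labels name no batch that would account for it, so many values are given by replicate and, for many results where the sets differ, within each set.

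Dnmt1 itself stood at 86.5 to 211 CPM (counts scaled to a common library size with TMM factors) in the 16 si-control libraries and at 5.11 to 17.3 CPM in the 16 si-dnmt libraries. All 8 endothelial markers were tested, and their sum was 2538 to 7895 CPM in each library. Of the 7 leukocyte markers, Ptprc, Itgam, Adgre1 and Cd3e never exceeded 3 counts, while the sum over the list, carried by Cd68 and Lyz2, was 67.6 to 232 CPM. The platelet markers summed to 3.23 to 9.90 CPM, the fibroblast and pericyte markers to 1.92 to 56.6 CPM and the epithelial markers to 0 to 0.341 CPM.

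DNMT1 acts on CpG dinucleotides, so the start-site windows of members that changed most are shown with their CpGs in capitals. Each runs from 250 bases before to 50 bases after the start (RefSeq, build GRCm38.p6), and 7 of the 8 genes had a window in the RefSeq table used; Ptgis had none. Ptgs2 and Ptgds were the members whose level differed with the siRNA, and Ptgs1 and Ptges had the largest cytokine responses in opposite directions.
Ptgs2, chr1:150099781-150100080, plus strand: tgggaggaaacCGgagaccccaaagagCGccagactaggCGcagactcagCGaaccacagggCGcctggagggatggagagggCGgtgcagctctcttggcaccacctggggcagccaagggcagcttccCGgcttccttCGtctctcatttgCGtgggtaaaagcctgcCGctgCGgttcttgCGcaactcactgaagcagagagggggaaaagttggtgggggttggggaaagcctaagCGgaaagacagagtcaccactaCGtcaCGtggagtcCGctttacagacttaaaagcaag
Ptgds, chr2:25469700-25469999, minus strand: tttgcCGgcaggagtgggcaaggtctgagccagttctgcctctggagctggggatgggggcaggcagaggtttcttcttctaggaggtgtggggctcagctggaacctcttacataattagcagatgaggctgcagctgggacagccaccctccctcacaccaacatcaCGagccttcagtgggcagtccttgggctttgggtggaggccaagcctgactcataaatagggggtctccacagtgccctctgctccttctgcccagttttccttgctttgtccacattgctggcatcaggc
Ptges, chr2:30903248-30903547, minus strand: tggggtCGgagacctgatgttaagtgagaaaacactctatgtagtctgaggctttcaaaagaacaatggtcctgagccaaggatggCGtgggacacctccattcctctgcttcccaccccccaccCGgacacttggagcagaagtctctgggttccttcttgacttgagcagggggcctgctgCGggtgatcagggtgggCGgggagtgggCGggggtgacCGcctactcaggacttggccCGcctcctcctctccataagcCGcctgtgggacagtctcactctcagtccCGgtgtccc
Ptgs1, chr2:36230176-36230475, plus strand: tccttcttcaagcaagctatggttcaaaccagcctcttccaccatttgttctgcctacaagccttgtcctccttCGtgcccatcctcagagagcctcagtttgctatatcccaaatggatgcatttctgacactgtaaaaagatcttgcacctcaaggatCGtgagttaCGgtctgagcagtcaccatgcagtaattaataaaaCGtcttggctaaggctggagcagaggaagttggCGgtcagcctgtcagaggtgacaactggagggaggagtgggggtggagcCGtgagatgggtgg
The Ptgs2 window held 16 CpGs and the Ptgds window 2, against a median of 7 over 32851 windows of the same length. Ptger4 had 25 CpGs, Ptges 10, Ptgs1 6, Tbxas1 4 and the 2 windows of Pla2g4a 6 and 2. Fewer CpGs than in the Ptgs2 window were counted in 67% of all windows, and fewer than in the Ptgds window in 14.1%. Motifs were searched on both strands of these windows as plain letters. The GAS element TTCNNNGAA, which 8.3% of all windows hold, matched in 0 windows of the members. The cyclic-AMP element core ACGTCA, found in 7.51% of all windows matched once, in Ptgs2. The box TATAAA, found in 13.6% of all windows, matched in Tbxas1 and in the second Pla2g4a window. Methylation was not measured in these libraries.

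Per exon length, Ptgs2, the inducible cyclooxygenase, was the most abundant member in all 8 groups, at a mean of 63.1 ± 11.7 CPM per kb (SD, n = 4) in si-control and 203 ± 92.5 in si-dnmt + TNF. Pla2g4a, the cytosolic phospholipase that releases arachidonic acid, came second in every group, at 18.5 ± 8.93 to 28.2 ± 17.7 CPM per kb. Ptgs1, the constitutive cyclooxygenase, followed at 7.50 ± 1.99 CPM per kb in si-control, but there it dropped to rank 4 with TNF (1.09 ± 0.731) and to rank 5 with TNF + IFN (0.508 ± 0.289). In si-dnmt it kept rank 3 in all 4 states, at 1.52 ± 0.787 with TNF and 0.8285 ± 0.308 with TNF + IFN. The gene next in rank there did not differ from it beyond their spread (Ptgds at 1.13 ± 0.793 with TNF, Ptges at 0.8247 ± 0.304 with TNF + IFN). Rank 3 went to Ptgds, the lipocalin-type prostaglandin D synthase, in si-control + TNF (6.47 ± 3.29) and to Ptges, the inducible prostaglandin E synthase, in si-control + TNF + IFN (1.22 ± 0.311). In that last group Ptges and Ptgds (1.11 ± 0.929) did not differ beyond their spread. Ptgis, the prostacyclin synthase, had a mean of at most 0.120 CPM per kb in every group, and in none of the 32 libraries did it exceed 9 counts. In all 8 groups the means of Ptgs2 and Pla2g4a were above that of every terminal synthase among the 8 genes.

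**Figure D1:**
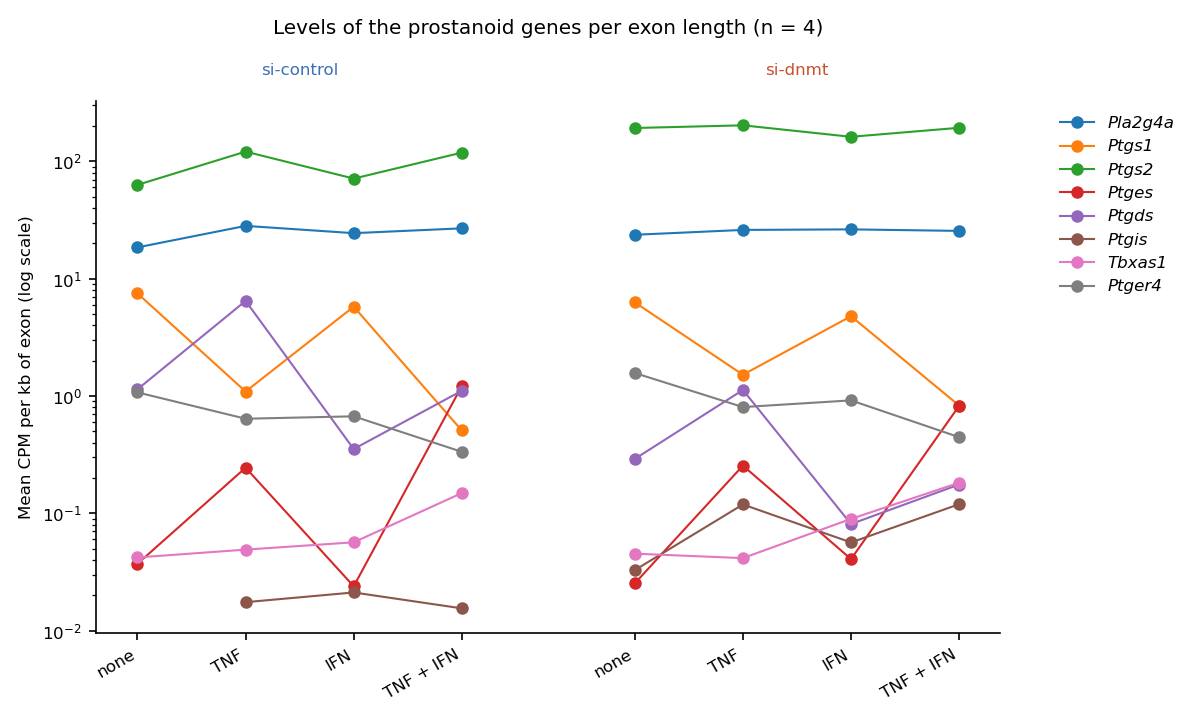
Mean CPM per kb of exon (log axis, n = 4 libraries a group, no error drawn) of the 8 genes in the 4 cytokine states of si-control (left) and si-dnmt (right); the mean of 0 for Ptgis in si-control without cytokine cannot be drawn. Ptgs2 and Pla2g4a lie on top in all groups, and the order below them changes with TNF.

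The first comparison asked how the genes differed between si-dnmt and si-control in each cytokine state. Ptgs2 was higher and Ptgds lower with si-dnmt, Ptgis was counted in more si-dnmt libraries, and Ptger4, Ptgs1 and Pla2g4a were called only with the block, in a fit of the groups compared or within a replicate set. By edgeR's quasi-likelihood test with Benjamini-Hochberg adjustment over all genes tested, 1 of 7 members was called in each state at an adjusted p under 0.05. That was 1 beside 18.5% of all genes called without cytokine, 20% with TNF, 20.3% with IFN and 17.7% with TNF + IFN, so the share of members called was near the background. With the replicate number as a block, 4, 2, 2 and 3 of the 7 were called, beside 32.4%, 33.4%, 34.5% and 30.8% of all genes. Within replicates 1 and 2 alone 3, 4, 4 and 1 were called, beside 23.9%, 26.1%, 25.2% and 23.8% of all genes, and within replicates 3 and 4 alone 5, 4, 3 and 3, beside 36.5%, 36.4%, 38.5% and 36.2%. A fit within a set has 2 libraries per group. Here and below, its p-values measure the spread inside that set and not the spread between sets. The median log2 fold change over the 7 members was 0.10, 0.06, 0.45 and 0.29 in these states, against −0.00, 0.00, −0.01 and 0.00 over all genes. In bulk RNA, a change in the number of cells that express a gene and a change in RNA per cell cannot be told apart.

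Without cytokine, the 4 si-control replicates (1 to 4 in order) held Ptgs2 at 232, 259, 315 and 351 CPM, and the 4 si-dnmt replicates at 483, 548, 1291 and 1209 CPM. Every si-dnmt library was above every si-control library, as in 21.2% of all genes that did not overlap in either direction. The difference was 1.61 ± 0.35 on the log2 scale (SE; 3.05-fold; adjusted p = 0.00145), with 1.08 in replicates 1 and 2 and 1.91 in replicates 3 and 4. With IFN, si-control stood at 294, 258, 397 and 360 CPM and si-dnmt at 550, 497, 1044 and 880 CPM, again without overlap (22% of all genes). The log2 difference was 1.18 ± 0.34 (2.27-fold; adjusted p = 0.0143). The call did not hold without replicate 3 of si-dnmt + IFN (0.98, adjusted p = 0.067).

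Under TNF and under TNF + IFN the Ptgs2 difference was not called over all 8 groups without the block. With TNF, si-control rose to 321, 334, 818 and 749 CPM and si-dnmt was at 515, 618, 1257 and 1332 CPM, so that each set was higher in si-dnmt while the groups overlapped across sets. The log2 difference was 0.74 ± 0.34 (adjusted p = 0.131), and with the replicate number as a block it was 0.75 (adjusted p = 0.00541). It was called within each set, at 0.79 (adjusted p = 1.24e-05) in replicates 1 and 2 and 0.72 (adjusted p = 1.29e-06) in replicates 3 and 4. With TNF + IFN, si-control was at 547, 660, 502 and 469 CPM and si-dnmt at 704, 724, 1049 and 1070 CPM, which do not overlap (21.9% of all genes). The log2 difference was 0.70 ± 0.34 (adjusted p = 0.167) with the block 0.60 (adjusted p = 0.0273) and in a fit of only these 2 groups 0.71 (adjusted p = 0.0222). Replicates 1 and 2 gave 0.24 (adjusted p = 0.122) and replicates 3 and 4 gave 1.13 (adjusted p = 3.04e-09).

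Ptgds moved the other way. It makes prostaglandin D2 and also carries lipophilic ligands. Without cytokine its level was 3.38, 2.60, 0.879 and 0.673 CPM in si-control and 1.02, 0.513, 0.0683 and 0.313 CPM in si-dnmt. Each si-dnmt library was below the si-control library of its own number, while replicates 3 and 4 were the lower libraries in both arms. The log2 difference was −2.00 ± 0.73 (adjusted p = 0.0546) and was called with the block (−1.97, adjusted p = 7.59e-06). It was also called by DESeq2 (adjusted p = 0.0336) and on leaving out replicate 3 or 4 of si-control or replicate 1 of si-dnmt (−2.67 to −2.24, adjusted p 0.0262 to 0.043).

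With TNF, the state in which Ptgds was highest, si-control held 14.1, 16.5, 6.23 and 5.85 CPM and si-dnmt 3.07, 2.91, 0.784 and 0.668 CPM. These did not overlap (22.7% of all genes), and the difference was −2.51 ± 0.65 (adjusted p = 0.00635). With IFN, si-control was at 1.01, 0.832, 0.218 and 0.270 CPM and si-dnmt at 0.278, 0.210, 0.0460 and 0 CPM. That difference of −2.26 ± 0.99 was not called (adjusted p = 0.111), but was called with the block (−2.19, adjusted p = 0.000509) and by DESeq2 (adjusted p = 0.0365).

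With TNF + IFN, Ptgds was at 3.84, 2.19, 0.493 and 0.794 CPM in si-control and at 0.308, 0.540, 0.116 and 0.198 CPM in si-dnmt. These overlapped, and the log2 difference was −2.67 ± 0.82 (adjusted p = 0.0228). The call did not hold without replicate 1 of si-control + TNF + IFN or replicate 3 or 4 of si-dnmt + TNF + IFN (−2.52 to −2.01, adjusted p 0.0684 to 0.116). Within replicates 1 and 2 and within replicates 3 and 4, Ptgds was lower with si-dnmt in all 4 states, with log2 differences of −3.41 to −1.92, and each of these 8 within-set differences was called.

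Ptgis was too rare to enter the test. In the 16 si-control libraries it had 11 counts in all, with 5 libraries above 0 and a highest count of 3. In the 16 si-dnmt libraries it had 72 counts, with 13 libraries above 0, 11 above 3 and a highest count of 9. Without cytokine, 9 counts in si-dnmt stood against 0 in si-control, where every library allows up to 3, so no fold is given. The ratio of summed counts was 6.88 with TNF (26 against 4 counts, 95% interval 2.39 to 27.1), 2.82 with IFN (15 against 4, 0.899 to 11.7) and 7.82 with TNF + IFN (22 against 3, 2.35 to 40.8). All si-control counts came from replicates 3 and 4, and within those replicates the ratios were 3.53, 2.12 and 4.37. The TNF ratio was 10.2 and 10.4 without replicate 3 or 4 of si-control + TNF, and the IFN ratio 4.25 and 4.23 without replicate 3 or 4 of si-control + IFN. The 3 counts of si-control + TNF + IFN came from replicate 4 alone, so without it no ratio is given. These intervals cover counting error only. In an edgeR fit with no low-count filter, where 5.98%, 6.48%, 6.71% and 5.72% of genes were called in the 4 states, Ptgis was not called (adjusted p = 0.147, 0.128, 0.569 and 0.141).

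Ptger4, the EP4 receptor for prostaglandin E2, was at 7.04, 8.48, 6.99 and 6.06 CPM in si-control and at 9.57, 11.4, 10.9 and 9.87 CPM in si-dnmt without cytokine. The groups did not overlap, but the log2 difference of 0.55 ± 0.24 was not called (adjusted p = 0.122). It was called with the block (0.54, adjusted p = 0.0263), in a fit of only these 2 groups (0.55, adjusted p = 0.0290) and in replicates 3 and 4 (0.67, adjusted p = 0.00507), while replicates 1 and 2 gave 0.45 (adjusted p = 0.0744). In the other states the Ptger4 difference was 0.33 to 0.45, with no call with or without the block. In replicates 1 and 2 alone it was called with TNF (0.66, adjusted p = 0.0227) and with IFN (0.74, adjusted p = 0.0137). The exons of Ptger4 overlap those of Gm15937, a pseudogene on the opposite strand, over 15.3% of their length (GENCODE M21), and reads of the pair cannot be told apart without the strand setting.

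The Ptgs1 difference depended on the replicate set and the cytokine state. Without cytokine, si-control held 34.1, 37.3, 22.7 and 22.3 CPM and si-dnmt 41.3, 36.0, 9.49 and 10.8 CPM. Replicates 1 and 2 differed by 0.12 on the log2 scale (adjusted p = 0.577) and replicates 3 and 4 by −1.15 (adjusted p = 7.76e-07), while all 4 together gave −0.26 ± 0.50 (adjusted p = 0.779; with the block −0.50, adjusted p = 0.0458). With IFN the sets gave 0.00 and −0.95 (adjusted p = 0.997 and 1.68e-05). With TNF both were positive, at 0.38 and 0.76 (adjusted p = 0.118 and 0.00735), and all 4 replicates gave 0.48 (adjusted p = 0.590). With TNF + IFN, si-control was at 3.17, 2.66, 0.801 and 1.27 CPM and si-dnmt at 3.69, 4.68, 2.08 and 2.42 CPM. That difference was 0.68 ± 0.60 (adjusted p = 0.496; with the block 0.75, adjusted p = 0.0426), with 0.52 (adjusted p = 0.115) in replicates 1 and 2 and 1.10 (adjusted p = 0.00305) in replicates 3 and 4.

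For the remaining members no siRNA difference was called with or without the block. Pla2g4a differed by 0.36, −0.11, 0.11 and −0.07 in the states without cytokine, with TNF, with IFN and with TNF + IFN. Without cytokine both replicate sets of Pla2g4a were called higher in si-dnmt (0.55, adjusted p = 6.98e-05, in replicates 1 and 2; 0.28, adjusted p = 0.0102, in replicates 3 and 4). With IFN the sets gave 0.32 (adjusted p = 0.0081) and −0.04 (adjusted p = 0.733). With TNF its replicate sets were called in opposite directions (0.37, adjusted p = 0.00296, in replicates 1 and 2; −0.29, adjusted p = 0.00641, in replicates 3 and 4). Ptges differed by −0.61, 0.06, 0.68 and −0.56 and Tbxas1, the thromboxane synthase, by 0.10, −0.26, 0.63 and 0.29. Both were low genes, with standard errors of 0.36 to 0.81.

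**Figure D2:**
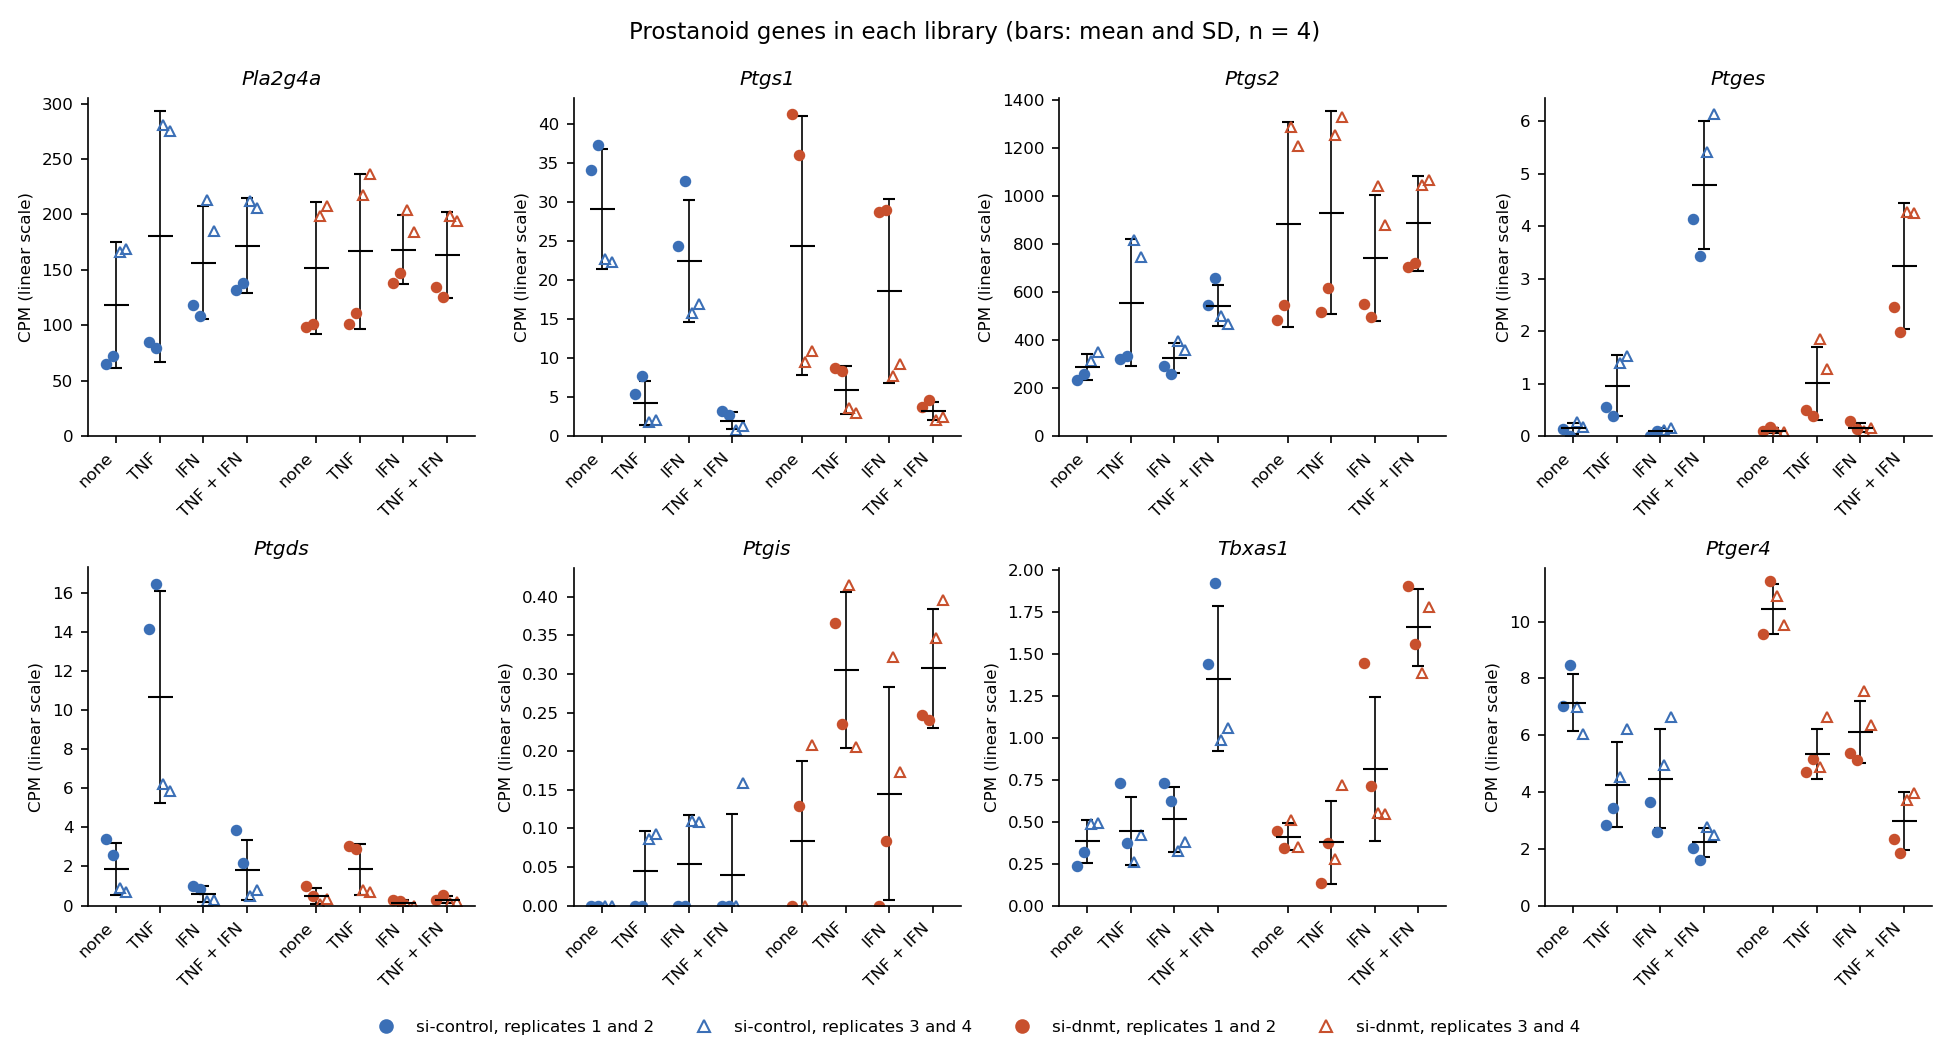
CPM (linear axes from 0) of each gene in each of the 32 libraries by cytokine state, si-control in blue and si-dnmt in red; filled circles are replicates 1 and 2, open triangles replicates 3 and 4, and bars give the mean and SD of 4 libraries. The 4 si-dnmt libraries without cytokine hold Ptgs2 at 483 to 1291 CPM, above the 232 to 351 CPM of si-control, and Ptgds peaks in si-control + TNF.

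**Figure D3:**
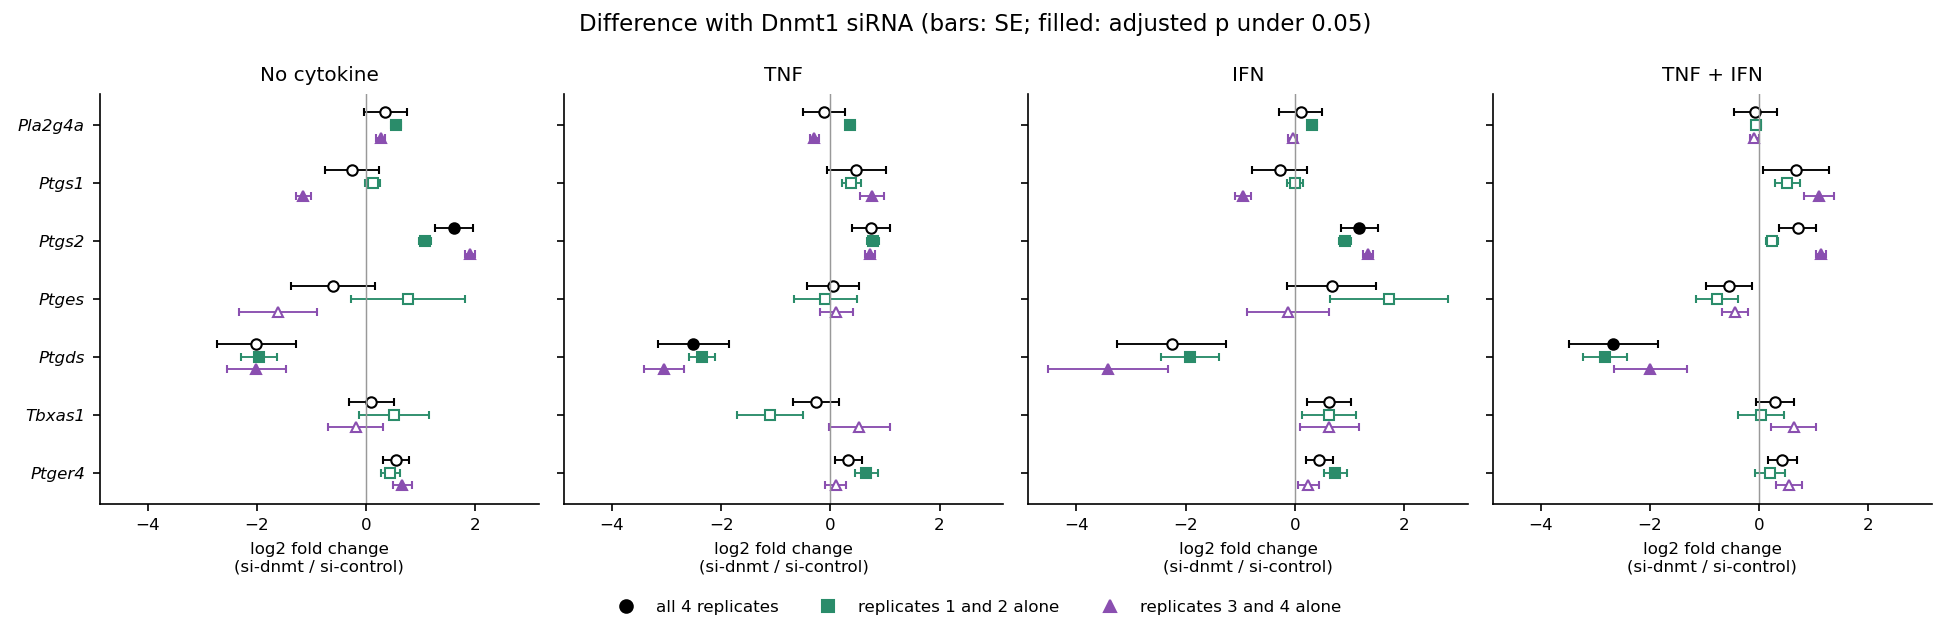
Log2 fold change of si-dnmt over si-control for the 7 tested genes in each cytokine state, with all 4 replicates (circles) and within each replicate set (squares and triangles); bars are SE and filled symbols are called at an adjusted p under 0.05. Ptgds lies below 0 and Ptgs2 above 0 in both sets of every state, while Ptgs1 without cytokine splits by set.

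The second comparison asked how each gene responded to the cytokines under either siRNA. In si-control, TNF lowered Ptgs1 and Ptger4 and raised Ptgs2, Ptges and Ptgds, and TNF + IFN lowered Ptgs1 and Ptger4 and raised Ptgs2, Ptges and Tbxas1. Thus 5 of 7 members were called with TNF (30.8% of all genes) and 5 of 7 with TNF + IFN (45.2%). With IFN alone 0 of 7 were called by edgeR (14.5% of all genes), 2 were at an unadjusted p under 0.05, and 1, Ptger4, was called by DESeq2. In si-dnmt, 3 of 7 were called with TNF (21% of all genes), 1 with IFN (9.01%) and 4 with TNF + IFN (40.2%). With the block the members called were 6, 3 and 6 in si-control (43.4%, 25.4% and 55.1% of all genes) and 4, 2 and 4 in si-dnmt (34.3%, 19% and 51.7%). The comparisons of 1 arm share their libraries without cytokine, so they are not independent of each other. Ptges, counted in each comparison with TNF or TNF + IFN, passed the low-count filter only through groups that received TNF.

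Ptgs1 had the deepest fall. In si-control it went from 34.1, 37.3, 22.7 and 22.3 CPM to 5.37, 7.74, 1.86 and 2.00 CPM with TNF, which did not overlap (26.4% of all genes). The log2 change was −2.78 ± 0.55 (6.86-fold lower; adjusted p = 0.000292). IFN alone left it at 24.3, 32.7, 15.8 and 17.0 CPM (−0.37 ± 0.50, adjusted p = 0.717), and with TNF + IFN it fell by 3.86 ± 0.59 on the log2 scale, 14.5-fold (adjusted p = 4.64e-06). In si-dnmt it fell to 8.74, 8.31, 3.60 and 2.93 CPM with TNF (−2.04 ± 0.53, adjusted p = 0.00643) and by 2.92 ± 0.56 on the log2 scale with TNF + IFN (adjusted p = 0.000121). The summed endothelial markers moved in the same direction, from 5194 to 7895 CPM in si-control to 3489 to 5035 with TNF and 3226 to 4464 with TNF + IFN, with 3 and 6 of the 8 markers called lower. Their part in the Ptgs1 result was not tested.

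Ptgs2 rose in si-control by 0.94 ± 0.34 on the log2 scale with TNF (adjusted p = 0.0368), where the groups overlapped, and by 0.91 ± 0.34 with TNF + IFN (adjusted p = 0.0306), where they did not. With IFN alone the change was 0.18 ± 0.34 (adjusted p = 0.815). The TNF rise was 0.43 in replicates 1 and 2 and 1.23 in replicates 3 and 4. The TNF call did not hold without any one of si-control replicates 1, 2 and 3 and si-control + TNF replicates 3 and 4 (0.70 to 0.98, adjusted p 0.0556 to 0.161). The TNF + IFN call did not hold without replicate 1 or 2 of si-control or replicate 1 or 2 of si-control + TNF + IFN (0.80 to 0.91, adjusted p 0.0509 to 0.0848). In si-dnmt, where Ptgs2 was higher without cytokine, no cytokine response was called over all replicates, with or without the block. The changes there were 0.08 ± 0.34 with TNF, −0.25 ± 0.34 with IFN and 0.01 ± 0.34 with TNF + IFN (adjusted p = 0.916, 0.788 and 0.992). With TNF + IFN the sets were called in opposite directions, at 0.47 (adjusted p = 0.000986) in replicates 1 and 2 and −0.24 (adjusted p = 0.0357) in replicates 3 and 4. With IFN they gave 0.02 (adjusted p = 0.921) and −0.38 (adjusted p = 0.00453).

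Ptges rose most. In si-control it was at 0.141, 0, 0.264 and 0.179 CPM without cytokine, at 0.559, 0.375, 1.38 and 1.53 CPM with TNF, and at 4.13, 3.44, 5.42 and 6.14 CPM with TNF + IFN. Of these 3 groups, none overlapped with another. TNF raised it by 2.63 ± 0.59 on the log2 scale (adjusted p = 0.00116) and TNF + IFN by 4.93 ± 0.57 (30.5-fold; adjusted p = 4.15e-08), whereas IFN alone left it at 0 to 0.162 CPM (−0.64 ± 0.83, adjusted p = 0.702). Without cytokine a library held 0 to 6 counts of it in si-control and 2 to 4 in si-dnmt, so the folds start near the floor. Ptges passed the low-count filter only through groups that received TNF, so its entry to the test favoured a rise. In si-dnmt the TNF change was 3.29 ± 0.61 (adjusted p = 0.000261), with 1.71 (adjusted p = 0.0727) in replicates 1 and 2 and 4.41 in replicates 3 and 4. The change there was 4.98 ± 0.59 with TNF + IFN (adjusted p = 8.17e-08). PTGES is the synthase usually coupled to the inducible cyclooxygenase.

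Ptgds rose with TNF. In si-control TNF raised it by 2.51 ± 0.65 on the log2 scale (5.69-fold; adjusted p = 0.00397), with no overlap between the groups. With IFN its log2 change was −1.67 ± 0.73, which was called with the block (−1.67, adjusted p = 0.000103) and within each set (−1.68 and −1.65) but not without the block (adjusted p = 0.140). With TNF + IFN the change was −0.01 ± 0.66 (adjusted p = 0.990). In si-dnmt the TNF change was 2.00 ± 0.73 (adjusted p = 0.0501; with the block 1.95, adjusted p = 7.22e-06). That call also appeared by DESeq2 (adjusted p = 0.0328) and without replicate 1 of si-dnmt or replicate 3 or 4 of si-dnmt + TNF (2.25 to 2.66, adjusted p 0.0286 to 0.038). IFN in si-dnmt gave −1.93 ± 0.99 (adjusted p = 0.295; with the block −1.89, adjusted p = 0.00339). The summed fibroblast and pericyte markers, of which 3 of 6 never exceeded 3 counts, also rose with TNF, from 1.92 to 3.74 CPM in si-control to 15.7 to 56.6. They stayed high with TNF + IFN (23.7 to 35.8 CPM), where Ptgds did not. Their part in the Ptgds result was not tested.

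Ptger4 fell with TNF and with TNF + IFN in both arms and with IFN in si-dnmt. In si-control TNF brought it to 2.84, 3.42, 4.54 and 6.22 CPM (−0.75 ± 0.25, adjusted p = 0.0237). That fall was −1.29 in replicates 1 and 2 and −0.28 (adjusted p = 0.253) in replicates 3 and 4. The call did not hold without replicate 2 of si-control or replicate 1 or 2 of si-control + TNF (−0.66 to −0.59, adjusted p 0.0712 to 0.0909). IFN gave 3.64, 2.60, 4.96 and 6.64 CPM (−0.68 ± 0.25, adjusted p = 0.0726), which was called with the block (−0.73, adjusted p = 0.00694) and without replicate 4 of si-control + IFN (−0.93, adjusted p = 0.0151). TNF + IFN gave 2.02, 1.61, 2.77 and 2.49 CPM, below every library without cytokine (39.5% of all genes did not overlap), a log2 change of −1.68 ± 0.26 (adjusted p = 5.99e-06).

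In si-dnmt, Ptger4 stood at 9.57, 11.4, 10.9 and 9.87 CPM without cytokine and at 4.71, 5.16, 4.89 and 6.63 CPM with TNF (−0.97 ± 0.25, adjusted p = 0.00556). With IFN it was at 5.39, 5.13, 7.54 and 6.35 CPM (−0.77 ± 0.25, adjusted p = 0.0445). These groups did not overlap, nor did 16.1% of all genes, but the call did not hold without any one of the 4 si-dnmt replicates or of si-dnmt + IFN replicates 1, 2 and 4 (−0.81 to −0.70, adjusted p 0.0601 to 0.146). With TNF + IFN it was at 2.34, 1.86, 3.70 and 3.95 CPM (−1.81 ± 0.26, adjusted p = 1.73e-06), again with no overlap (39.1% of all genes).

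Tbxas1 rose with TNF + IFN in both arms and was called with neither cytokine alone. In si-control it was at 0.235, 0.318, 0.483 and 0.493 CPM without cytokine and at 1.44, 1.93, 0.986 and 1.06 CPM with TNF + IFN (1.80 ± 0.39, adjusted p = 0.00043), with no overlap. The change was 2.61 in replicates 1 and 2 and 1.06 (adjusted p = 0.0676) in replicates 3 and 4. In si-dnmt it was 1.99 ± 0.38 (adjusted p = 0.000113). Thromboxane synthase is best known from platelets and macrophages. The leukocyte marker sum moved the other way, from 191 to 227 CPM in si-control to 101 to 169 with TNF + IFN, and the platelet marker sums overlapped (3.55 to 7.52 against 3.51 to 5.50 CPM). All 3 tested platelet markers were called, Pf4 higher (1.20, adjusted p = 0.00205) and Itga2b and Gp1ba lower (−0.80 and −1.03, adjusted p = 0.0295 and 0.00784). Their part in the Tbxas1 result was not tested.

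Pla2g4a was called in no contrast of the fit without the block, and its libraries separated by set: replicates 1 and 2 held 65.4 and 72.3 CPM in si-control and replicates 3 and 4 166 and 169 CPM. With the block it rose in si-control by 0.54, 0.47 and 0.64 on the log2 scale with TNF, IFN and TNF + IFN (adjusted p = 0.00784, 0.0312 and 0.00144). Without the block the same changes were 0.61 ± 0.39, 0.40 ± 0.39 and 0.54 ± 0.39 (adjusted p = 0.257, 0.589 and 0.278). In si-dnmt the 3 changes were 0.14, 0.15 and 0.11 ± 0.39, with no call in either fit.

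**Figure D4:**
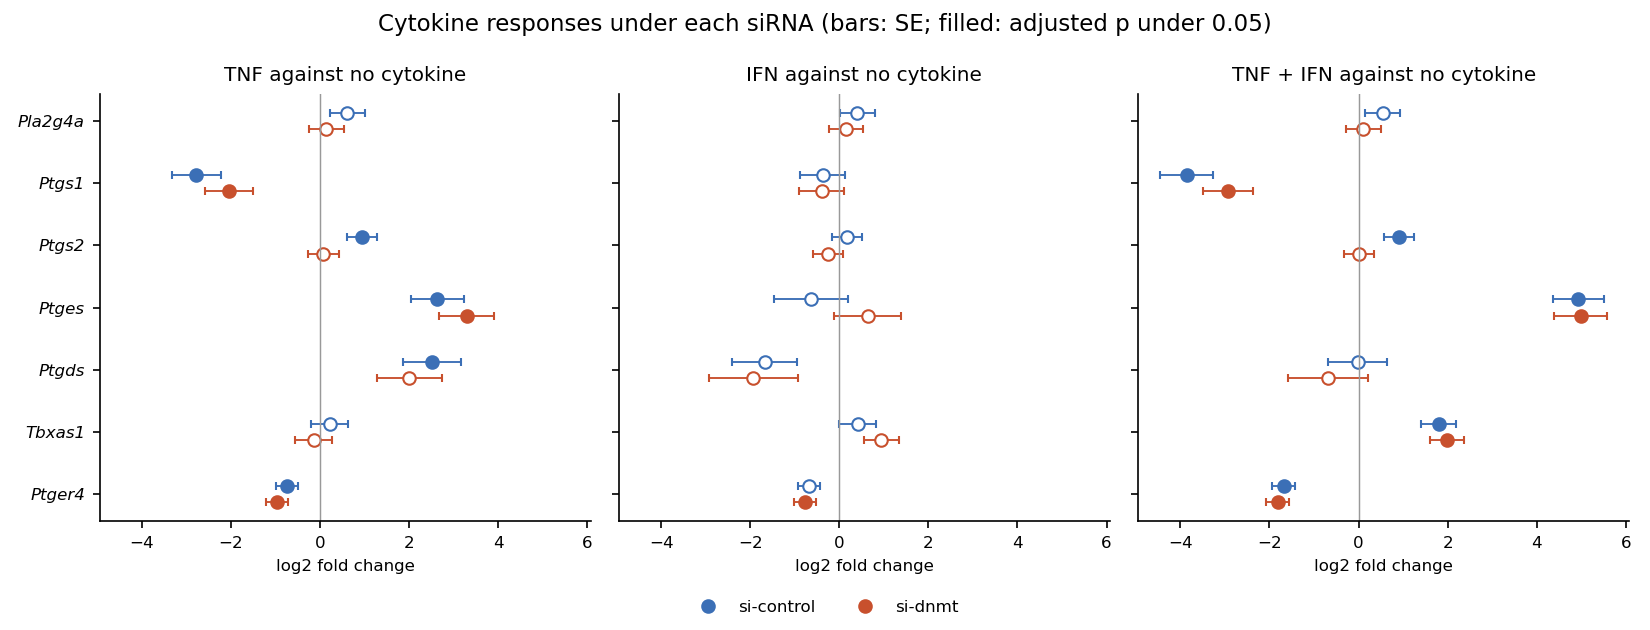
Log2 fold change of each cytokine state against no cytokine for the 7 tested genes, in si-control (blue) and si-dnmt (red); bars are SE and filled circles are called at an adjusted p under 0.05. Ptges and Ptgs1 lie at opposite ends with TNF + IFN (4.93 and −3.86 in si-control), and with IFN alone only Ptger4 in si-dnmt is filled.

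Whether these responses differed between the siRNAs, or the 2 cytokines combined beyond the sum of their log2 effects, was tested by 5 interaction terms. Without the block, 0 of the 7 members were called in them by edgeR. DESeq2 called 0 of the members to which it gave an adjusted p. It gave none to Ptgs1, Ptges, Ptgds, Tbxas1 and Ptger4 in the term of the siRNA with TNF. Tbxas1 had none in the term with IFN either. Over all genes 0.0328%, 0.0459% and 0.531% were called for the siRNA with TNF, IFN and TNF + IFN, and 1.06% and 0.354% for TNF by IFN in si-control and si-dnmt. With the block 0, 0, 1, 1 and 0 members were called, beside 0.892%, 0.387%, 4.18%, 4.23% and 1.82% of all genes. At an unadjusted p under 0.05 there were 0, 0, 0, 2 and 1 members. For Ptgs2 the interaction with TNF was −0.87 ± 0.48 and that with TNF + IFN −0.91 ± 0.48 (adjusted p = 0.830 and 0.599), so its responses were not shown to differ between the siRNAs. Within each replicate set the TNF + IFN term was called, at −0.84 in replicates 1 and 2 (adjusted p = 0.00147) and −0.78 in replicates 3 and 4 (adjusted p = 0.000263). The TNF term of Ptgs2 was −0.29 (adjusted p = 0.539) and −1.18 (adjusted p = 3.73e-06) in the sets. Its TNF-by-IFN term in si-control was called in opposite directions, at 0.69 (adjusted p = 0.00456) and −0.87 (adjusted p = 0.000117). For Pla2g4a the term with TNF + IFN was called in both sets (−0.60, adjusted p = 0.0039, and −0.36, adjusted p = 0.0419) but not over all replicates (−0.43, adjusted p = 0.914). For Ptgs1 the interaction with TNF + IFN was 0.93 ± 0.78 (adjusted p = 0.828) and with the block 1.25 (adjusted p = 0.0322). It was 0.39 (adjusted p = 0.533) in replicates 1 and 2 and 2.25 (adjusted p = 3.22e-05) in replicates 3 and 4. The Ptgs1 term with TNF was 0.74 (adjusted p = 0.962), with 0.26 (adjusted p = 0.789) and 1.91 (adjusted p = 4.13e-05) in the sets. For Ptges the TNF-by-IFN term in si-control was 2.95 ± 0.96 (adjusted p = 0.180; with the block 3.01, adjusted p = 0.0236), where a positive value is a rise with both beyond the sum of the 2 alone. Tbxas1 gave 1.18 ± 0.57 and 1.19 ± 0.56 in the 2 arms (adjusted p = 0.503 and 0.776).

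Around these genes, other genes of the pathway were counted by list. Counts with the siRNA are given in the order no cytokine, TNF, IFN and TNF + IFN, and stand beside 18.5%, 20%, 20.3% and 17.7% of all genes called. Of 8 other prostanoid receptors, 3 were tested. In si-control Ptgir, the prostacyclin receptor, rose from 0, 0, 0.352 and 0.673 CPM to 1.38, 1.03, 6.19 and 7.94 CPM with TNF (3.93 ± 0.74, adjusted p = 0.000165) and to 2.45, 1.35, 5.61 and 5.88 CPM with TNF + IFN (3.82 ± 0.74, adjusted p = 0.000113). Ptgfr, the receptor for prostaglandin F2α, fell from 3.71, 4.14, 5.45 and 6.91 CPM to 2.11, 2.44, 1.60 and 1.44 CPM with TNF (−1.41 ± 0.31, adjusted p = 0.000944) and by 1.67 ± 0.32 on the log2 scale with TNF + IFN (adjusted p = 9.23e-05). Thus Ptgir and Ptger4, which both signal through cyclic AMP, went in opposite directions with TNF. With the siRNA, 1 of the 3 was called in 1 state: Ptgfr was lower in si-dnmt + TNF (−1.12 ± 0.34, adjusted p = 0.0194). That call did not hold without replicate 2 of si-control + TNF or replicate 1 or 2 of si-dnmt + TNF (−1.03 to −0.97, adjusted p 0.0584 to 0.0659).

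Of 6 other synthases, 5 were tested. Akr1b3, an aldose reductase that can make prostaglandin F2α and has close homologues whose reads cannot be told apart with certainty, had far higher levels in replicates 1 and 2 than in replicates 3 and 4. Without cytokine si-control held 1618, 2212, 99.8 and 119 CPM, and TNF + IFN left 153, 171, 74.2 and 83.7 CPM. Its fall with TNF + IFN was 3.07 ± 0.76 on the log2 scale, called over all replicates (adjusted p = 0.00147), but it was −3.54 in replicates 1 and 2 and −0.47 in replicates 3 and 4. With TNF the call (−2.33 ± 0.73, adjusted p = 0.0159) turned to 0.10 (adjusted p = 0.479) in replicates 3 and 4, and it did not hold without replicate 1 or 2 of si-control or replicate 3 or 4 of si-control + TNF (−2.16 to −1.61, adjusted p 0.0511 to 0.100). Akr1b3 was also lower in si-dnmt without cytokine (−2.09 ± 0.73, adjusted p = 0.0445), a call that did not hold without replicate 1 or 2 of si-control or replicate 3 or 4 of si-dnmt (−1.82 to −1.36, adjusted p 0.126 to 0.213). Cbr1, a carbonyl reductase that acts on prostaglandin E2, fell in si-control with TNF (−0.71 ± 0.15, adjusted p = 0.000641) and TNF + IFN (−1.13 ± 0.15, adjusted p = 7.42e-07). It was higher in si-dnmt by 0.67 ± 0.15 with TNF and by 0.58 ± 0.16 with TNF + IFN (adjusted p = 0.00207 and 0.00951), the latter not without replicate 4 of si-dnmt + TNF + IFN (0.44, adjusted p = 0.0674). In the list as a whole, 2, 1, 1 and 1 of the 5 were called with the siRNA in the 4 states. The others, named after their values were seen, were Ptges2, lower without cytokine (−0.48, adjusted p = 0.0181), and Hpgds, the hematopoietic prostaglandin D synthase, higher with IFN (1.61, adjusted p = 0.0446).

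Of 6 genes of transport and inactivation, 5 were tested, and 1, 2, 2 and 0 were called with the siRNA, all higher in si-dnmt. Ptgr2, which reduces 15-keto-prostaglandins, was among them by 0.47 ± 0.10, 0.52 ± 0.10 and 0.32 ± 0.10 without cytokine, with TNF and with IFN (adjusted p = 0.0012, 0.000418 and 0.0211). Exons of Gm47484 on the opposite strand overlap 32% of those of Ptgr2. The remaining call was Zadh2, another reductase of this kind named after its values were seen, with TNF (0.39, adjusted p = 0.00689). The Ptgr2 call with IFN did not hold without replicate 2 or 4 of si-control + IFN or replicate 3 or 4 of si-dnmt + IFN (0.26 to 0.31, adjusted p 0.0539 to 0.0912). Abcc4, an efflux pump for prostaglandin E2 and cyclic nucleotides, went from 114, 129, 268 and 265 CPM to 78.5, 86.6, 105 and 108 CPM with TNF + IFN in si-control (−1.04 ± 0.37, adjusted p = 0.024). That call did not hold without replicate 3 or 4 of si-control or replicate 1 or 2 of si-control + TNF + IFN (−1.003 to −0.84, adjusted p 0.0542 to 0.0871). It was higher in si-dnmt with IFN (1.04 ± 0.37, adjusted p = 0.047), a call that did not hold without any one of the 4 si-control + IFN replicates or of si-dnmt + IFN replicates 3 and 4 (0.84 to 1.17, adjusted p 0.0531 to 0.160). With the block Abcc4 was called in all 4 states, at 0.90 (adjusted p = 3.71e-06), 0.54 (0.00151), 0.98 (1.38e-06) and 0.62 (0.000475).

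Of 17 other enzymes that can release arachidonic acid, 4 were tested, and 0, 2, 1 and 2 were called with the siRNA, all higher in si-dnmt (18.5%, 20%, 20.3% and 17.7% of all genes). Pla2g4c, a calcium-independent member of the cytosolic family, rose with every cytokine in si-control, by 1.72 ± 0.56, 2.24 ± 0.55 and 3.44 ± 0.52 with TNF, IFN and TNF + IFN (adjusted p = 0.0193, 0.00457 and 3.55e-06). The TNF call did not hold without replicate 3 of si-control (1.36, adjusted p = 0.0742). Under the cytokines it was higher in si-dnmt than in si-control, while without cytokine that difference was 0.42 ± 0.61 (adjusted p = 0.694). In the interactions of si-dnmt with TNF, IFN and TNF + IFN, 0 of the 4 tested genes were called (0.0328%, 0.0459% and 0.531% of all genes). With TNF + IFN Pla2g4c held 3.80, 3.28, 1.11 and 1.75 CPM in si-control and 12.4, 10.9, 6.25 and 5.78 CPM in si-dnmt, with no overlap (1.82 ± 0.40, adjusted p = 0.00186). The differences with TNF and IFN were 1.70 ± 0.44 (adjusted p = 0.00659) and 2.07 ± 0.43 (adjusted p = 0.000913). The TNF difference was 2.29 (adjusted p = 1.74e-05) in replicates 1 and 2 and 0.81, not called, in replicates 3 and 4 (adjusted p = 0.113).

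Pla2g5, a secreted phospholipase, rose with TNF + IFN in si-control (2.27 ± 0.42, adjusted p = 6.1e-05) and was higher in si-dnmt with TNF (1.34 ± 0.40, adjusted p = 0.0166). The second call did not hold without replicate 1 or 3 of si-control + TNF or replicate 2 or 4 of si-dnmt + TNF (1.14 to 1.25, adjusted p 0.0505 to 0.0625). Pla2g6, the constitutive calcium-independent enzyme, fell with TNF (−0.67 ± 0.19, adjusted p = 0.00707) and TNF + IFN (−1.02 ± 0.19, adjusted p = 6.33e-05) in si-control. It was higher in si-dnmt + TNF + IFN (0.55 ± 0.19, adjusted p = 0.0409), which did not hold without any one of 6 of the 8 libraries, namely si-control + TNF + IFN replicates 2, 3 and 4 and si-dnmt + TNF + IFN replicates 2, 3 and 4 (0.48 to 0.60, adjusted p 0.0508 to 0.123).

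The lipoxygenase branch uses the same arachidonic acid to make leukotrienes. Of its 11 genes, 8 were tested, and 2, 4, 3 and 2 were called higher and 1 lower in each state with si-dnmt, beside the same 18.5%, 20%, 20.3% and 17.7% of all genes. The higher ones were receptors, and the lower one, named after its values were seen, was Lta4h, the enzyme that makes leukotriene B4 (−0.35 to −0.27). Ltb4r2, a receptor of low affinity for leukotriene B4, was at 0.235, 0, 0.352 and 0.359 CPM in si-control and at 0.935, 1.37, 0.648 and 1.18 CPM in si-dnmt without cytokine. It was higher in all 4 states, by 2.06 ± 0.46, 2.54 ± 0.46, 2.59 ± 0.49 and 1.60 ± 0.51 (adjusted p = 0.00194, 0.000209, 0.000338 and 0.0285). No si-control library held more than 8 counts of it, so it passed the low-count filter only through si-dnmt libraries. Entry to the test thus favoured this direction. The call with TNF + IFN did not hold without replicate 2 of si-control + TNF + IFN or replicate 1 or 4 of si-dnmt + TNF + IFN (1.29 to 1.51, adjusted p 0.0641 to 0.0994).

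The receptors of cysteinyl leukotrienes and the high-affinity receptor Ltb4r1 were all at or below 3.20 CPM. In si-control, Cysltr2 had at most 8 counts in a library and Ltb4r1 at most 11. Both therefore passed the low-count filter through si-dnmt libraries, so their higher calls, like those of Ltb4r2, are not independent of that filter. Cysltr2 was higher in si-dnmt with IFN (2.47 ± 0.58, adjusted p = 0.00275), where si-control held 0.448, 0.0520, 0.382 and 0.216 CPM and si-dnmt 1.67, 1.51, 1.89 and 1.10 CPM. Its calls with TNF (1.94 ± 0.70, adjusted p = 0.0497) and TNF + IFN (1.98 ± 0.62, adjusted p = 0.0266) did not hold without any one of 7 and 5 of the 8 libraries (1.54 to 1.99, adjusted p 0.0766 to 0.142, and 1.84 to 1.95, adjusted p 0.0543 to 0.0739). The 7 were the si-dnmt + TNF replicates 1, 2, 3 and 4 and si-control + TNF replicates 1, 2 and 4, and the 5 were si-control + TNF + IFN replicates 1, 3 and 4 and si-dnmt + TNF + IFN replicates 1 and 4. Cysltr2 with TNF was 3.13 (adjusted p = 0.0221) in replicates 1 and 2 and 1.20 (adjusted p = 0.336) in replicates 3 and 4.

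Cysltr1 was higher by 1.87 ± 0.53 without cytokine and by 1.64 ± 0.53 with TNF (adjusted p = 0.0121 and 0.0292), the latter not without replicate 3 or 4 of si-control + TNF or replicate 2 of si-dnmt + TNF (1.20 to 1.49, adjusted p 0.0816 to 0.144). In si-control its rise with TNF + IFN (1.34 ± 0.54, adjusted p = 0.0443) was 2.50 in replicates 1 and 2 and −0.55 in replicates 3 and 4, and did not hold without replicate 1, 2 or 4 of si-control or replicate 1 or 2 of si-control + TNF + IFN (0.97 to 1.36, adjusted p 0.073 to 0.190). Ltb4r1 was higher by 1.94 ± 0.47 with IFN and by 1.29 ± 0.44 with TNF (adjusted p = 0.00413 and 0.0354), the latter not without any one of the 4 si-control + TNF replicates or of si-dnmt + TNF replicates 2 and 4 (1.09 to 1.37, adjusted p 0.0514 to 0.124).

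With the replicate block, further calls arose among the 13 pathway genes that the naming rule picked, beside those of Abcc4 given above. With the siRNA these were Pla2g5 without cytokine (1.20, adjusted p = 0.0192) and with IFN (1.10, adjusted p = 0.0137), Ptgr2 (0.26, adjusted p = 0.0307) and Cysltr1 (1.22, adjusted p = 0.0113) in TNF + IFN, and Pla2g6 in the 3 other states. The Pla2g6 differences were 0.33, 0.49 and 0.49 in the untreated, TNF and IFN states, at adjusted p values of 0.0229, 0.00137 and 0.00136. With IFN in si-control they were Ptgfr (−0.70, adjusted p = 0.0216), Cbr1 (−0.34, adjusted p = 0.0450), Akr1b3 (−1.43, adjusted p = 0.0120), Abcc4 (−0.90, adjusted p = 3.76e-06) and Pla2g6 (−0.37, adjusted p = 0.0151), where none of the 5 was called without the block.

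**Figure D5:**
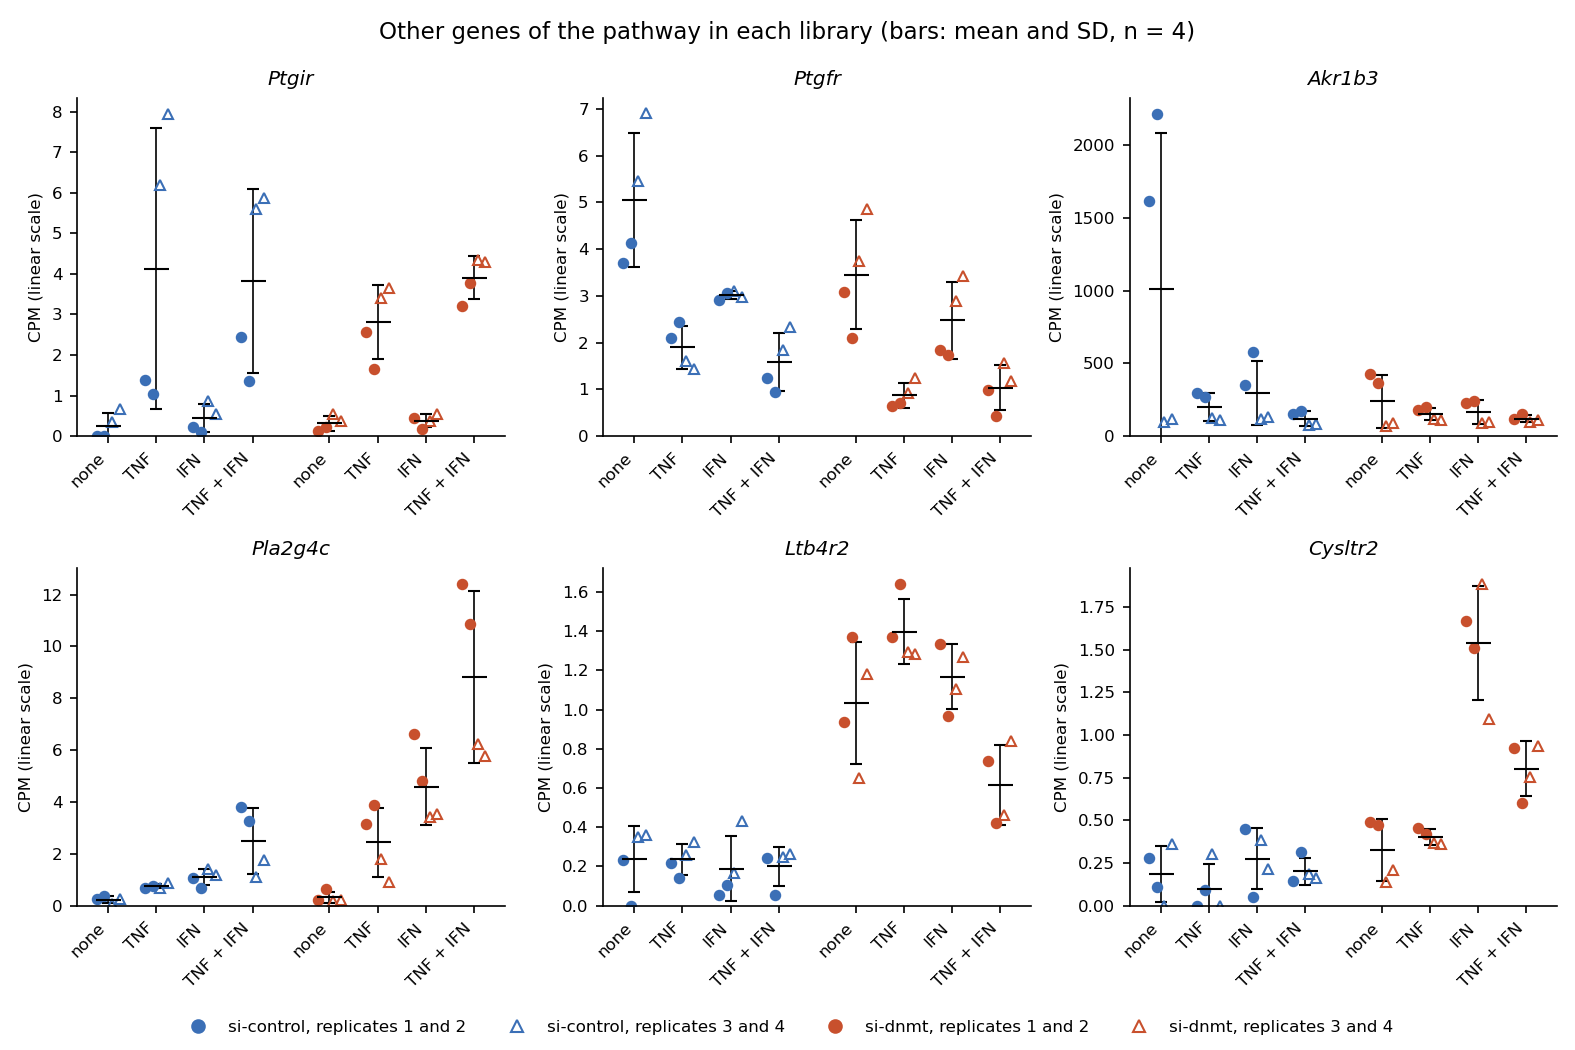
CPM (linear axes from 0) of 6 other genes of the pathway in each library, drawn as for the members (filled circles replicates 1 and 2, open triangles replicates 3 and 4, bars mean and SD of 4 libraries). Ptgir lies at 1.03 to 7.94 CPM in si-control + TNF against 0 to 0.673 without cytokine, Akr1b3 is at 1618 and 2212 CPM only in si-control replicates 1 and 2, and Pla2g4c is highest in si-dnmt + TNF + IFN.

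The genes whose log2 CPM followed each member most closely over the 32 libraries were found by Pearson's r, as a description only, since the libraries share groups and replicate sets. Ptgs1 was closest to Npr1 (0.977), Tcp11l2 (0.968) and Tie1 (0.958), and Ptgs2 to Pgd (0.946), Lrrfip2 (0.942) and Slc39a6 (0.933). Among the genes closest to Ptges were Serpinb6b (0.933) and Rbpj (0.928), and among those closest to Ptgds were Dync1li2 (0.915) and Dapk2 (0.910). Ptger4 was closest to Zfp362 (0.927), Hdac6 (0.926) and Ceacam1 (0.920). Pla2g4a was closest to Arpin (0.917), Faf1 (0.917) and Gm21399 (0.905), and Tbxas1, with lower values throughout, to Olfr94 (0.862), Gmeb2 (0.861) and Khnyn (0.854).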

How the data were processed

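Bulk RNA-seq libraries of the Veravec lung EC line were analysed, 4 per group in 8 groups taken from the sample labels. The authors deposited whole counts per gene, made with featureCounts from trimmed reads without normalization, as 1 table per library and 1 table merged by symbol. The submitters' processing notes name cutadapt 4.9, FastQC 0.12.1, MultiQC 1.27.1, featureCounts and DESeq2. The aligner, genome build, annotation and strand setting are not given in the sources used, and reads of a gene and of a gene overlapping it on the other strand cannot be told apart. For the members in the text this concerns Ptgs1, Ptgis, Tbxas1 and Ptger4, where 1.23% to 15.3% of the exon bases of GENCODE M21 are shared with a gene on the opposite strand. A title written si-dnmtl + TNF was read as si-dnmt + TNF.

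Per-library counts were analysed in R 4.3.3 with edgeR 4.0.16. Genes passing filterByExpr at a minimum count of 10 were kept (15254), scaled by TMM and fitted with 8 group means. Each contrast was a quasi-likelihood F test (two-sided). P-values were adjusted over all these genes by the Benjamini-Hochberg method, and calls are those with an adjusted p under 0.05. Fold changes are log2 ± SE, with the SE taken as the fold change over the square root of F. CPM used the TMM-scaled totals, and CPM per kb the union of the exons of GENCODE M21. A count of 0 was taken to allow up to 3 counts. Intervals of ratios are exact 95% Poisson intervals and cover counting error only. The tests were checked on simulated counts with a fixed dispersion and no difference between replicate sets. That check therefore does not cover the separation of the sets seen in these libraries.

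Replicate numbers were treated as pairs because, over the 112 same-number pairs of libraries from different groups, every correlation of deviations from the group mean was above 0.1 (0.297 to 0.617). Most of this lies between the sets 1 and 2 and 3 and 4: libraries of the same set with another number had a median of 0.409, against 0.415 for the same number, and libraries of the other set were all below −0.239. Libraries of the same set with another number were also all above 0.1 (lowest 0.209). The rule therefore cannot tell pairing by number from membership of a set. The labels do not say whether replicates came from separate experiments, so p-values measure the spread between these cultures.

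The members, the pathway and marker lists, and the tests were chosen with earlier results of these data known. Named were the members, the 3 genes most like each tested member by r of log2 CPM (prior count 2) over 32 libraries, and, in 5 pathway lists, up to 4 genes called in at least 2 siRNA contrasts with the largest mean change plus any gene called with a log2 change of at least 1 with a cytokine in si-control. Some genes that this rule picked are not reported here. Alternatives were RLE and upper-quartile factors, DESeq2 1.42.0, no low-count filter, a fit of only the groups compared, the replicate number as a block, either replicate set alone and leaving out each library.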

Additional observations from a re-analysis of the deposited data

Results flagged for a closer look

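Sets of 4 libraries, 1 per gene and group, were searched for a library standing apart by Dixon's 95% criterion, which flags about 1 in 20 sets by chance. Of 63 sets, 1 was picked out: Ptgis in si-control + TNF + IFN, where replicates 1, 2 and 3 had 0 counts and replicate 4 had 3, so that the gap took the whole range (a ratio of 1). A count of 3 is within the limit that a count of 0 allows.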

How the results depend on the processing

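Depth limits Ptgis most, and Ptges, Ptgds and Tbxas1 where they lie under 1 CPM. The separation of replicates 1 and 2 from replicates 3 and 4 widens the spread of the fit without a block, so that the number of members called depended on it. With the replicate block, which was fitted by replicate number, 4, 2, 2 and 3 of 7 members were called with the siRNA without cytokine and with TNF, IFN and TNF + IFN, in place of 1 each. The block gave 3 in place of 0 for IFN in si-control, 2 in place of 1 for IFN in si-dnmt, and 1 in place of 0 for the interactions of si-dnmt with TNF + IFN and of TNF with IFN in si-control. Beside the calls named in the report it changed no other call of a member. It turned 0 called values and 1 that was not called, the Ptgs1 interaction with IFN (from −0.018 to 0.049).

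DESeq2 gave 2 members without cytokine and 2 with IFN for the siRNA, 1 for IFN in si-control and 4 in place of 3 for TNF in si-dnmt. Without a low-count filter, 0 were called for IFN in si-dnmt. A fit of only the groups compared gave 2 for the siRNA without cytokine and 2 for TNF in si-control, in place of 5. In the latter, Ptgs2 (0.94, adjusted p = 0.0625) and Ptger4 (−0.75, adjusted p = 0.0568) lost their calls, and Ptges fell below the low-count filter of that fit. Replicates 1 and 2 alone gave 3, 4, 4 for the siRNA without cytokine, with TNF and with IFN (23.9%, 26.1% and 25.2% of all genes), 3 and 4 for IFN in si-control and si-dnmt (25.4% and 19.4% of all genes), and 2 for each of the interactions of si-dnmt with TNF + IFN (4.86%) and of TNF with IFN in si-control (10.6%). Replicates 3 and 4 alone gave 5, 4, 3 and 3 for the siRNA in the 4 states (36.5%, 36.4%, 38.5% and 36.2%), 3 and 2 for IFN in si-control and si-dnmt (21.9% and 16.1%), 3, 1 and 3 for the interactions of si-dnmt with TNF, IFN and TNF + IFN (8.04%, 1.01% and 11.8%), and 3 for TNF with IFN in si-control (4.35%). Leaving out 1 library at a time gave 1 to 2 members for the siRNA without cytokine, 0 to 1 with IFN and with TNF + IFN, 3 to 5 for TNF in si-control (3 without si-control replicate 2) and 0 to 1 for IFN in either arm. The share of all genes called was not counted for DESeq2, the fits of only the groups compared or the leave-one-out fits. Nor was it counted for IFN in si-dnmt without a low-count filter, so these member counts have no background beside them. The causes of these changes were not tested.

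Of the called changes, 2 reversed under any alternative: Akr1b3 with TNF (0.10) and Cysltr1 with TNF + IFN (−0.55) in si-control, both in replicates 3 and 4 alone. All other reversals were of changes that were not called. With replicates 1 and 2 alone these were, for the siRNA, Ptgs1 (0.12) and Ptges (0.77) without cytokine, Pla2g4a (0.37) and Ptges (−0.092) with TNF and Ptgs1 with IFN (0.0013), and, for the cytokines, Ptgds with TNF + IFN in si-control (0.033) and Ptgs2 with IFN in si-dnmt (0.024). With replicates 3 and 4 alone they were, for the siRNA, Tbxas1 without cytokine (−0.18) and with TNF (0.53) and Pla2g4a (−0.041) and Ptges (−0.13) with IFN. For the cytokines they were Tbxas1 with TNF (−0.53) and IFN (−0.46) in si-control and with TNF in si-dnmt (0.18), Pla2g4a in si-dnmt with IFN (−0.066) and TNF + IFN (−0.046), Ptgs2 with TNF + IFN in si-dnmt (−0.24) and the Ptgs1 interaction with IFN (0.20). Ptgs2 with TNF + IFN in si-dnmt, at 0.0058, was also −0.0113 with RLE factors, −0.073 with upper-quartile factors, −0.0112 by DESeq2 and −0.0068 with no filter, and Ptgds with TNF + IFN in si-control was 0.0145 with no filter.

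Leaving out 1 library at a time reversed changes that were not called, over these ranges. For the siRNA they were Ptgs1 (−0.64 to 0.0116) and Tbxas1 (−0.075 to 0.25) without cytokine, Pla2g4a (−0.36 to 0.18), Ptges (−0.43 to 0.36) and Tbxas1 (−0.75 to 0.0895) with TNF, and Pla2g4a with IFN (−0.036 to 0.29) and TNF + IFN (−0.18 to 0.046). In si-control they were Tbxas1 with TNF (−0.13 to 0.40) and Ptgds with TNF + IFN (−0.68 to 0.44). In si-dnmt they were Pla2g4a with TNF (−0.082 to 0.33), IFN (−0.0061 to 0.34) and TNF + IFN (−0.052 to 0.30), Ptgs2 with TNF (−0.15 to 0.32) and TNF + IFN (−0.20 to 0.25) and Tbxas1 with TNF (−0.64 to 0.14). The Ptgs1 interaction with IFN ranged from −0.32 to 0.36.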
